A study of Mus musculus with 6 samples.

Results

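miR-191 and miR-425 are microRNAs (miRNAs), short RNAs that guide Argonaute proteins to messenger RNAs and lower their output, and they come from neighbouring hairpins. All rows of the miRNA table whose base name was mmu-miR-191 or mmu-miR-425 were taken, which gave 4 of 778 features: the 5p and the 3p arm of each of 2 hairpins. Small RNA was sequenced from mature sperm of the cauda epididymis, the part of the duct where sperm are stored, in C57BL/6 mice 8 weeks of age. The normal group held 3 samples from normal mice and the stress group 3 samples from mice made depressed by stress. No genotype, drug or stress procedure is named in the labels used here, and strain and age were the same in both groups. Whether the replicates are separate mice is not stated, so each p-value reflects only the spread among the sequenced samples, and that spread may be technical.

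A miRNA hairpin is cut into a duplex of a 5p and a 3p strand. One strand, the guide, is usually loaded into Argonaute, and the other, the passenger, is mostly degraded, so the arm ratio describes how unequally the strands are kept. miR-191 is found in many tissues and is often used as a reference in PCR measurements of other miRNAs. Mates of one genomic cluster can be made from a shared primary transcript, while each hairpin is processed and each mature strand decays by itself.

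The mature sequences are shown because every result compares these strands; capitals mark the seed, bases 2 to 8 from the 5′ end, which sets most target pairing.
miR-191-5p: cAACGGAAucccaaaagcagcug
miR-191-3p: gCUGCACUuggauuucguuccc
miR-425-5p: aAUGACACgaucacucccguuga
miR-425-3p: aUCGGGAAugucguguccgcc
All 4 deposited sequences were identical to those in RefSeq (table for GRCm38.p6). The seeds differed from each other, and no other feature of the miRNA table carried any of them. In the RefSeq table, 1 further mouse miRNA, miR-489-3p, has the seed of miR-425-5p; it was not analysed here. Both 5p arms are 23 bases long, miR-191-3p is 22 and miR-425-3p is 21.

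The hairpins are shown because the arm ratios below compare the strands in capitals, which are the mature 5p arm followed by the 3p arm.
Mir191: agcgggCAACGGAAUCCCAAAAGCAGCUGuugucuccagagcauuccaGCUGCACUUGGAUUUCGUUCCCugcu
Mir425: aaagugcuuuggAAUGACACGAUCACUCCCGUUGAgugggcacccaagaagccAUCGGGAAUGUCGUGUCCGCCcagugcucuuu
In GRCm38.p6, matched by sequence because the build used by the submitters is not given in the sources used here, Mir191 lies at chr9:108568319-108568392 and Mir425 at chr9:108568777-108568861, both on the plus strand. The hairpins are 74 and 85 bases long, 384 bases apart, and have 19 and 18 bases between their arms. In the GENCODE M21 annotation both lie inside the noncoding gene 4833445I07Rik, within the single exon of one of its transcripts, and Mir191 lies in an intron of its other transcript. The protein-coding gene Dalrd3, whose product takes part in tRNA methylation, starts 1024 bases downstream of Mir425. Ndufaf3, a gene for an assembly factor of mitochondrial complex I, lies 884 bases upstream of Mir191 on the opposite strand. A predicted miRNA gene, Gm24083, covers Mir191 on the opposite strand.

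Libraries held 1010203 to 1522849 miRNA reads in 5 samples and 3067208 in normal replicate 3, which therefore stood apart in depth. Counts of all 4 features were whole numbers in every sample. Samples were put on a common scale in 2 ways: as reads per 1000000 reads of the miRNA table (RPM), and with TMM, edgeR's factor that centres most miRNAs on no change. TMM factors were 0.683 to 0.859 in normal and 1.24 to 1.38 in stress samples, so the 2 scales differ systematically between the groups. RPM values are relative amounts within the miRNA reads, and fewer cells of a type and less RNA per cell cannot be told apart in such bulk samples.

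The main strand, miR-191-5p, took a larger part of the miRNA reads in every stress sample than in any normal sample. It stood at 1056, 1141 and 1784 RPM in normal replicates 1 to 3 and at 3038, 2685 and 3130 in stress replicates 1 to 3. Normal replicate 3, the deep library, was the highest of its group. The group means were 1327 ± 398 and 2951 ± 235 RPM (SD, n = 3), a 2.22-fold higher level in stress (exact permutation p = 0.1, two-sided, the smallest that 3 against 3 samples can give). Such a rise without overlap was common on this scale: of the 236 tested miRNAs 56.8% were higher in stress without overlap and 5.51% lower, 62.3% in all.

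With TMM scaling the groups still did not overlap for miR-191-5p, but the difference was smaller. Values were 1369, 1672 and 2077 CPM (RPM corrected by the TMM factor) in normal and 2359, 2163 and 2276 CPM in stress samples, where 18.6% of tested miRNAs were higher without overlap and 20.8% lower, 39.4% in all. The mean went from 1706 ± 355 to 2266 ± 98.2 CPM (SD, n = 3), and the spread was wider among normal than among stress samples. The log2 fold change, stress minus normal, was 0.41 ± 0.25 (SE) and did not pass the threshold of 0.05 (adjusted p = 0.26, edgeR quasi-likelihood test with Benjamini-Hochberg adjustment over all features tested).

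miR-425-5p, the main strand of the other hairpin, was at 60.9, 40.4 and 67.8 RPM in normal and 117.6, 84.1 and 85.1 in stress samples. These groups did not overlap either, at 56.4 ± 14.2 and 95.6 ± 19.1 RPM (SD, n = 3), 1.70-fold apart (exact permutation p = 0.1). With TMM the separation was gone: the values were 79.0, 59.2 and 79.0 CPM in normal and 91.3, 67.7 and 61.9 CPM in stress samples, and each group held values inside the range of the other. The log2 fold change was 0.02 ± 0.28 (adjusted p = 0.97 in edgeR), and its sign changed when normal replicate 2 or stress replicate 1 was left out (−0.08 and −0.14).

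**Figure D1:**
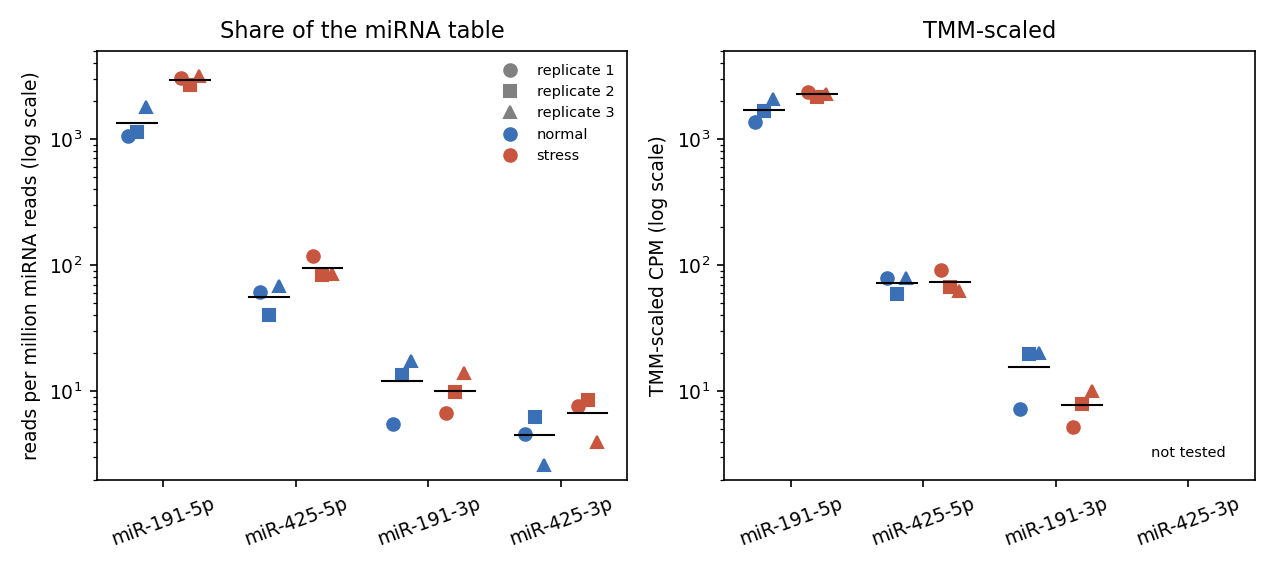
Levels of the 4 arms in the 6 samples, as RPM of the miRNA table (left) and as TMM-scaled CPM (right), on log axes; symbols are replicates and black lines are group means. miR-191-5p in stress samples lies above every normal sample on both scales, miR-425-5p only on the left, and miR-425-3p was too low to be tested with TMM.

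The passenger strands were rare. miR-191-3p had 6, 15 and 53 reads in normal and 7, 15 and 14 in stress samples, which is 5.54, 13.5 and 17.3 against 6.69, 9.85 and 13.9 RPM, with overlapping groups (exact permutation p = 0.8, n = 3 per group). With TMM its mean was 15.7 ± 7.37 CPM in normal and 7.74 ± 2.45 CPM in stress samples (SD, n = 3). The log2 fold change of −1.05 ± 0.49 did not pass (adjusted p = 0.16 in edgeR), and normal replicate 1, at 7.18 CPM, lay among the stress samples. miR-425-3p had 5, 7 and 8 reads in normal and 8, 13 and 4 in stress samples and failed the filter on low counts. At 4 to 13 reads a sample, only very large changes of this strand would be detectable. Its 95% Wilson interval in normal replicate 1, for example, ran from 1.97e-04% to 0.00108% of the miRNA reads; intervals cover counting error only.

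Of the 4 arms, 3 passed the filter and 0 of these 3 passed the threshold in edgeR with TMM, where 12.7% of the 236 tested features did (2.54% higher and 10.2% lower). None of the 3 had an unadjusted p under 0.05 in edgeR (0.12, 0.058 and 0.95 for miR-191-5p, miR-191-3p and miR-425-5p). DESeq2 called 0 of 3 as well, and 47 of the 236 tested features. With the miRNA table's total as library size in edgeR, the call changed for miR-191-5p: it rose by 1.15 ± 0.27 on the log2 scale (adjusted p = 0.011). Of all tested features 44.9% were called there, 40.7% of all tested as higher and 4.24% as lower. miR-191-5p was also called on that scale whichever sample was left out (adjusted p from 0.0037 to 0.046 in edgeR), an alternative added after the data were seen. miR-425-5p was at 0.75 ± 0.31 there and did not pass (adjusted p = 0.068), although it did without normal replicate 3 (0.91, adjusted p = 0.045). miR-191-3p was at −0.32 ± 0.51 (adjusted p = 0.64).

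On that total scale the median of all tested miRNAs moved to 0.76, against 0.00 with TMM. Relative to the median of all features, miR-191-5p was 0.41 higher with TMM and 0.39 higher with the total, miR-425-5p was 0.02 higher and 0.01 lower, and miR-191-3p was 1.05 and 1.08 lower. A change of library size moves all fold changes by nearly the same amount. The distance of each strand from the median had to stay nearly the same and is not a separate result.

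**Figure D2:**
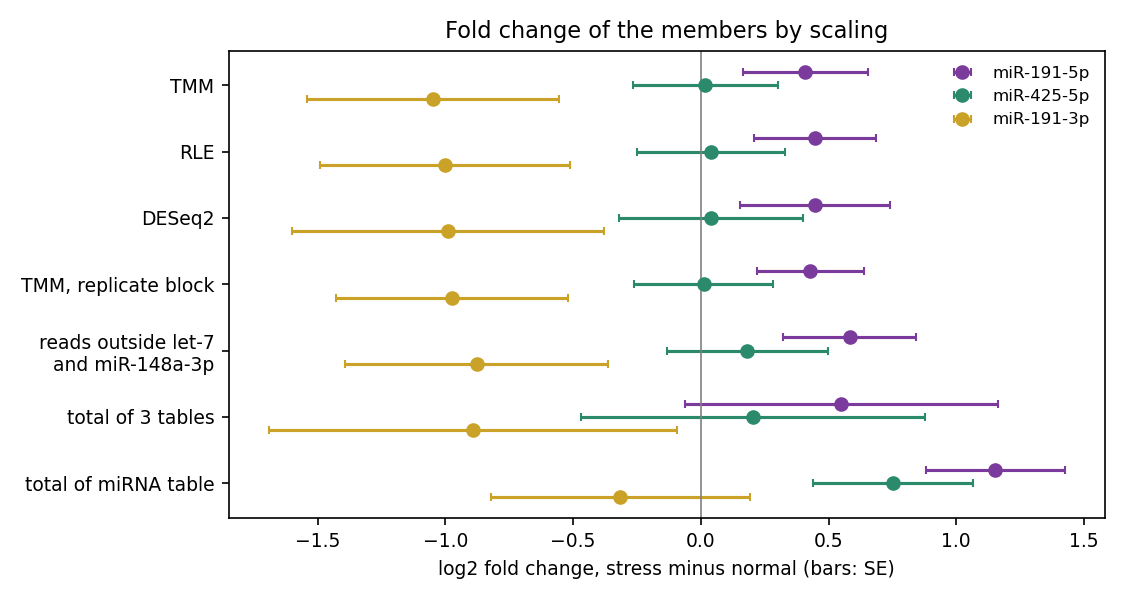
Log2 fold change, stress minus normal, of the 3 tested arms under 7 ways of scaling or fitting; points are estimates and bars are SE. miR-191-5p lies above 0 in all 7, from 0.41 with TMM to 1.15 with the miRNA total, miR-425-5p runs from 0.01 with the replicate block to 0.75, and miR-191-3p lies below 0 in all 7.

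As a part of the miRNA reads outside the let-7 family and miR-148a-3p, miR-191-5p took 0.415%, 0.439% and 0.659% in normal and 0.799%, 0.690% and 0.777% in stress samples. The groups did not overlap, at 0.504% ± 0.134 and 0.755% ± 0.0572 (SD, n = 3), 1.5-fold apart (exact permutation p = 0.1). How many of all tested miRNAs separated on this scale was not counted, so the separation cannot be called particular to miR-191-5p. The margin between normal replicate 3 and stress replicate 2 was narrow. miR-425-5p took 0.0215% ± 0.00521 and 0.0246% ± 0.00552 of these reads, with overlap (exact permutation p = 0.6, n = 3 per group).

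By level, miR-191-5p was among the abundant sperm miRNAs. Its rank by reads was 39, 40 and 31 in the normal and 31, 28 and 27 in the stress samples, of 442 to 567 miRNAs detected per sample. miR-425-5p ranked 117 to 132, miR-191-3p 183 to 282 and miR-425-3p 229 to 335. Among tested miRNAs ordered by mean TMM-scaled level, let-7d-5p (2025 CPM) stood just above miR-191-5p (1986 CPM) and miR-3535 (1924 CPM) just below it. These steps were far smaller than the SD over the 6 samples (385 CPM for miR-191-5p, 602 for let-7d-5p and 1885 for miR-3535). The neighbours of miR-425-5p (73.0 CPM) were miR-106b-3p at 74.3 and miR-1843b-5p at 72.3 CPM, again within the spread of 12.2 CPM. miR-191-3p, at 11.7 CPM, lay between miR-199b-5p (11.7 CPM) and miR-330-3p (10.96 CPM), within its SD of 6.56 CPM.

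The arms of miR-191 were very unequal, and more so in the stress samples. The 3p strand made up 0.522%, 1.17% and 0.959% of the reads of the hairpin in normal replicates 1 to 3 and 0.220%, 0.365% and 0.441% in stress replicates 1 to 3. Every normal sample was above every stress sample, but normal replicate 1 rested on 6 reads, and its 95% Wilson interval of 0.239% to 1.13% held the values of stress replicates 2 and 3. The intervals of normal replicates 2 and 3 were 0.709% to 1.92% and 0.734% to 1.25%, and those of the stress replicates 0.107% to 0.453%, 0.222% to 0.602% and 0.263% to 0.739%. As log2(5p/3p), with 0.5 added to each count, the ratio was 6.83 ± 0.57 in normal and 8.18 ± 0.49 in stress samples (SD, n = 3), a difference of 1.35 (exact permutation p = 0.1). A ratio within a sample does not depend on the library scale. This difference was 1.08 to 1.66 when single samples were left out.

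An unequal shift of arms was not particular to miR-191. Over 36 hairpins with both arms in the table and at least 110 reads of the minor arm, the total of miR-191-3p, the groups did not overlap for 61.1%, with the ratio of major to minor arm higher in stress for 33.3% and lower for 27.8%. This set was chosen after the values were seen. By size the miR-191 shift ranked 11 of 36, close to that of miR-30b (1.33) and miR-743b (1.38) and smaller than that of miR-23b (2.19) and miR-671 (−2.75). Within this set 5 of the 36 hairpins had more unequal arms than miR-191, whose minor arm made up 0.597% of its reads over all samples. The cutoff was the total of miR-191-3p itself and left out hairpins with fewer minor-arm reads. This place therefore does not show how unequal miR-191 is among all hairpins.

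For miR-425 the 3p strand held 7.04%, 13.5% and 3.70% of the reads of the hairpin in normal and 6.11%, 9.22% and 4.44% in stress samples. The groups overlapped fully, with 52 to 216 reads of both arms per sample behind these shares. The log2(5p/3p) ratio was 3.6 ± 1.01 in normal and 3.79 ± 0.51 in stress samples (SD, n = 3; exact permutation p = 0.9), and its difference of 0.19 turned negative without normal replicate 2 (−0.31) or stress replicate 3 (−0.05). The passenger strand thus took a larger part of its hairpin in miR-425 than in miR-191 in each of the 6 samples.

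The ratio of the cluster mates did not separate the groups. miR-191-5p had 17.3, 28.2 and 26.3 reads per read of miR-425-5p in normal and 25.8, 31.9 and 36.8 in stress samples. Normal replicate 1 was the lowest and stress replicates 2 and 3 the highest, while stress replicate 1 lay among the normal samples. In other terms miR-425-5p was 5.45%, 3.42% and 3.66% of the summed 5p reads in normal and 3.73%, 3.04% and 2.65% in stress samples. The log2 ratio was 4.54 ± 0.38 and 4.96 ± 0.26 (SD, n = 3), and the groups overlapped (difference 0.42, exact permutation p = 0.3). The difference was between 0.20 and 0.55 when single samples were left out. A ratio between different miRNAs also holds any difference in how well each is captured in a library, which was not measured. The 3p strands stood nearer to each other, at 1.20, 2.14 and 6.63 reads of miR-191-3p per read of miR-425-3p in normal and 0.875, 1.15 and 3.5 in stress samples, with too few reads for a finer comparison.

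**Figure D3:**
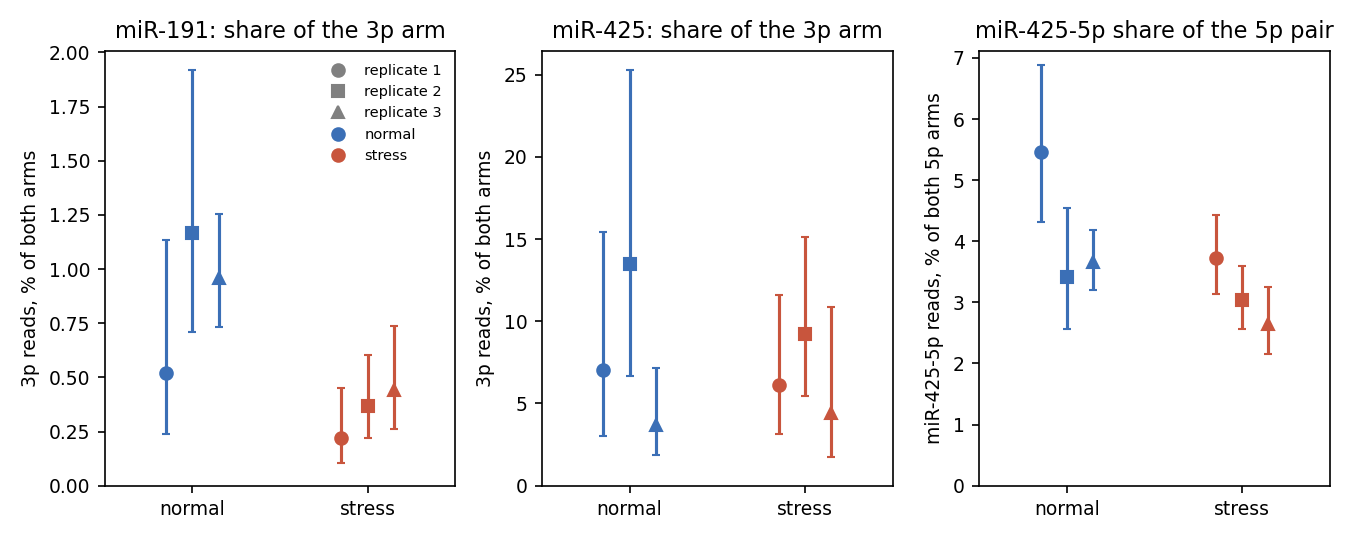
Share of the 3p strand in the reads of miR-191 (left) and of miR-425 (middle), and share of miR-425-5p in the summed 5p reads (right), in percent; symbols are replicates and bars are 95% Wilson intervals, which cover counting error only. The miR-191 shares of the stress samples (0.220% to 0.441%) lie below those of the normal samples (0.522% to 1.17%), while the groups overlap in the other 2 panels.

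Among 18 clustered pairs with both mates tested, the miR-191-5p and miR-425-5p pair was neither the most nor the least stable. The size of its shift ranked 12 of 18, and its SD within groups, 0.32 on the log2 scale, ranked 14 of 18 from the widest. The groups did not overlap for 33.3% of the pairs, for example miR-221-3p and miR-222-3p (shift 1.91), miR-143-3p and miR-145a-5p (−1.39) and miR-93-5p and miR-25-3p (1.16). miR-30e-5p and miR-30c-5p moved least (−0.03). Some mates, such as miR-30c-5p, miR-16-5p, miR-29b-3p and miR-181a-5p, also come from other loci, so these ratios do not all describe one transcript.

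**Figure D4:**
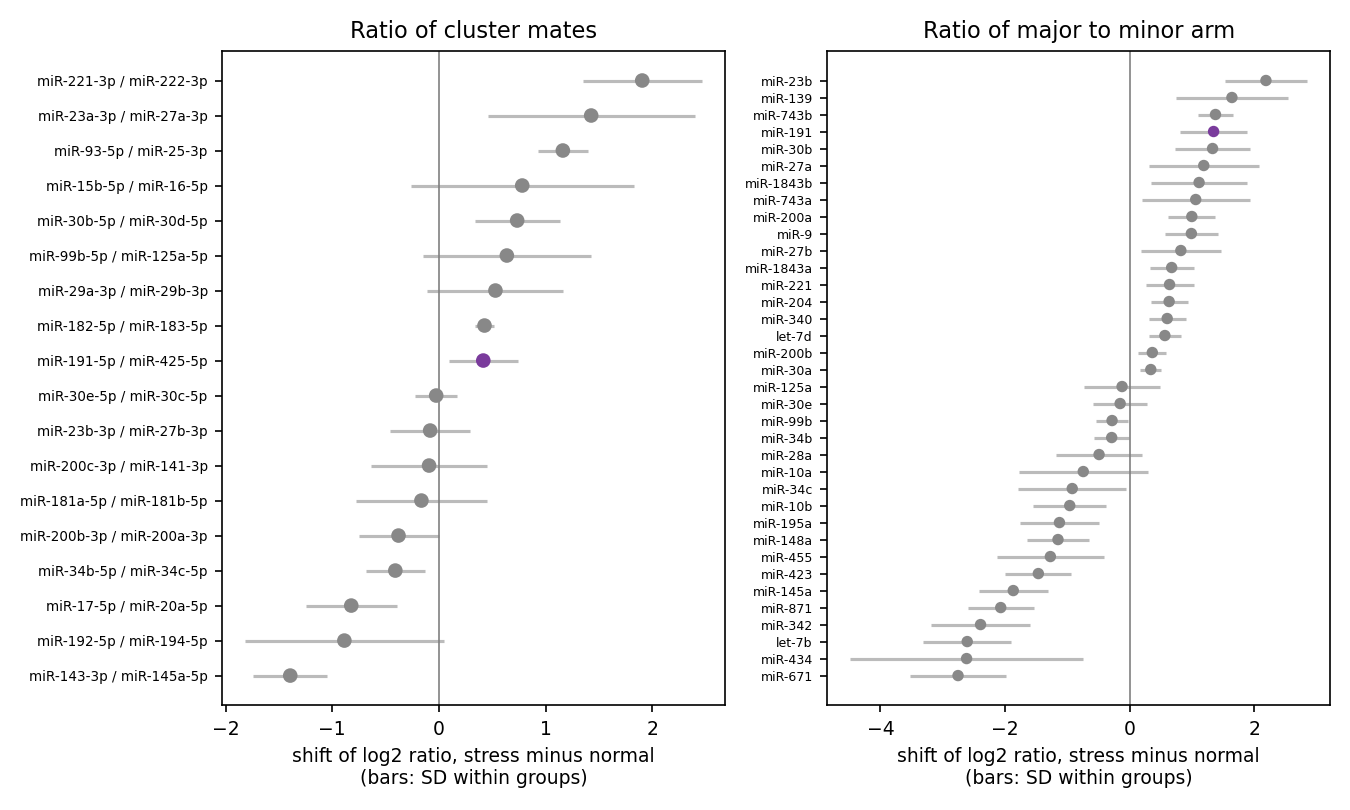
Shift of the log2 ratio, stress minus normal, for 18 pairs of cluster mates (left) and for the major over the minor arm of 36 hairpins (right); points are differences of group means, bars are the SD within groups, and miR-191 is in purple. The mate ratio of miR-191-5p and miR-425-5p (0.42) lies in the middle of the pairs, and the arm shift of miR-191 (1.35) is the fourth highest in the upward direction.

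miR-191-5p was next set beside 16 tested miRNAs that are often used as references in PCR. In edgeR with TMM 2 of the 16 fell, let-7a-5p (−1.38 ± 0.23, adjusted p = 0.0044) and miR-423-5p (−1.51 ± 0.30, adjusted p = 0.0078), 0 rose and 14 did not pass, with a median of 0.26 against 0.00 for all features. The share called was thus near the 12.7% of all tested features (10.2% called lower). With the miRNA total 10 of the 16 rose and 1 fell, with a median of 0.99 against 0.76 for all features, where 40.7% of all features were called higher and 4.24% lower. The 1 was let-7a-5p (−0.62, adjusted p = 0.040, from 0.016 to 0.15 when single samples were left out), and miR-423-5p did not pass on that scale (−0.73, adjusted p = 0.057). Over the 6 samples the SD of the TMM-scaled log2 level was 0.31 for miR-191-5p and 0.24 for miR-425-5p, against a median of 0.35 for the references and 0.51 for all features with reads in every sample. From the least variable upward, miR-425-5p ranked 17 and miR-191-5p 42 of 232. miR-423-3p (0.17) and miR-320-3p (0.18) varied less and miR-484 (0.89) more.

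On the share scale the order was different: the SD was 0.70 for miR-191-5p, above the 0.65 median of all features, and 10 of the 16 references varied less. Ratios of miR-191-5p to each reference, which need no scale, were higher in stress on average for 10 of the 16, with shifts from −0.53 for miR-93-5p to 1.90 for miR-423-5p on the log2 scale and a median of 0.16. The groups did not overlap for 7 of these ratios, 5 of them higher in stress (to let-7a-5p, miR-25-3p, miR-26a-5p, miR-423-3p and miR-423-5p) and 2 lower (to miR-93-5p and miR-103-3p). Over the ratios of miR-191-5p to each of the 235 other tested miRNAs, the groups did not overlap for 40.4%, higher in stress for 33.2% and lower for 7.23%.

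**Figure D5:**
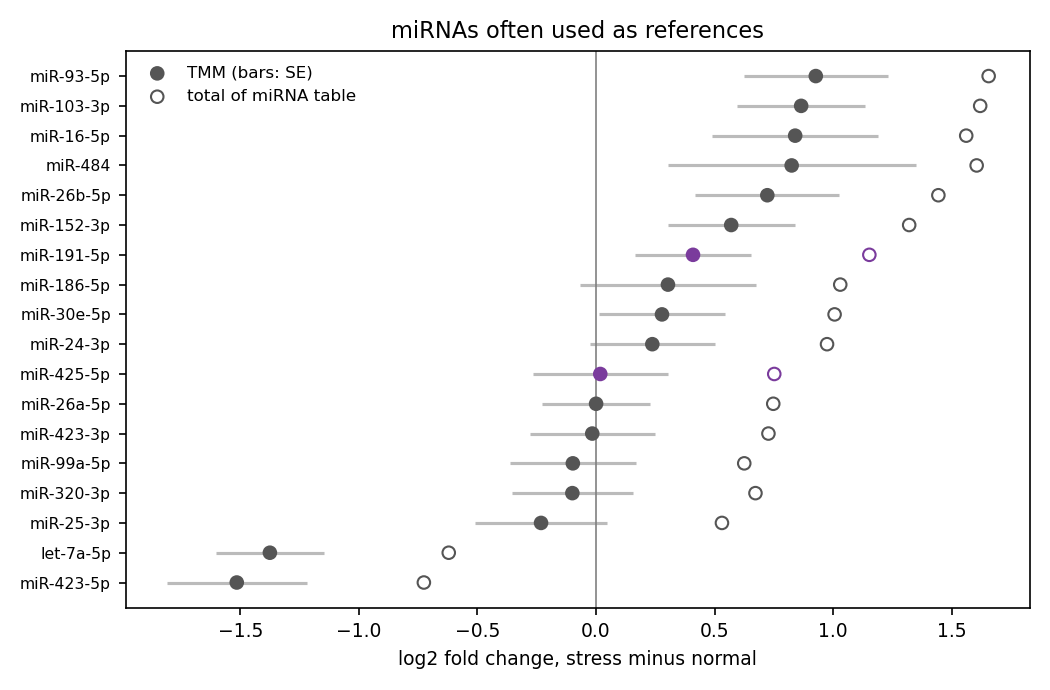
Log2 fold change, stress minus normal, of 16 miRNAs often used as references and of miR-191-5p and miR-425-5p (purple), with TMM (filled, bars are SE) and with the miRNA total (open). With TMM miR-191-5p (0.41) and miR-425-5p (0.02) lie in the middle of the references, and with the total all but let-7a-5p and miR-423-5p lie above 0.

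Over the 6 samples, the TMM-scaled log2 levels most like those of miR-191-5p were those of miR-199b-5p, miR-3473e, miR-30b-5p, miR-671-5p and miR-26b-5p (Pearson r = 0.94 to 0.96). Each was higher in stress on average, with log2 fold changes from 0.43 for miR-3473e to 1.79 for miR-199b-5p, and none passed in edgeR (adjusted p from 0.051 to 0.29). Those most like miR-425-5p were miR-218-5p, miR-196b-5p, miR-195a-5p, miR-125b-5p and miR-26a-5p (r = 0.81 to 0.90), with fold changes from −0.77 to 0.38 that did not pass either. The mates themselves were not alike on this scale (r = 0.11), and miR-425-5p came 120 in the order of likeness to miR-191-5p. As shares of the reads the same pair had r = 0.86, where the points also share each library's total. These are likenesses picked from all tested miRNAs over 6 samples in 2 groups, given as a description.

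Summed TMM-scaled levels of epithelial, stromal and leukocyte markers were higher in the stress samples without overlap, as miR-191-5p was; of single tested miRNAs 18.6% were. The sum of 7 markers of epithelium, the tissue that lines the epididymis, was 17581 to 21641 CPM in normal and 21880 to 24724 CPM in stress samples. The margin was narrow, and the largest epithelial marker, miR-200b-3p, had a log2 fold change of 0.07. The sum of 7 tested stromal and smooth muscle markers was 3463 to 6738 against 7210 to 7977 CPM. Most of it was miR-143-3p, whose groups overlapped (2860, 6142 and 5142 against 6088, 7016 and 6820 CPM). The sum of 4 tested leukocyte markers was 481 to 916 against 1039 to 1340 CPM. Most of the leukocyte sum was miR-146a-5p (408, 455 and 728 against 881, 1003 and 1021 CPM), and miR-142a-3p of the same list had a log2 fold change of −0.76. miR-155-5p was at 0 reads in 2 samples and miR-223-3p and miR-142a-5p in 1 each.

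In edgeR with TMM, where 12.7% of all features were called, 0 of the 7 epithelial, 2 of the 7 stromal and 0 of the 4 leukocyte markers passed, with medians of 0.45, 0.49 and 1.07. The 2 were miR-145a-5p (1.96) and the joint miR-199a-3p/miR-199b-3p feature (1.29), both higher, and the second did not pass without stress replicate 3 (adjusted p = 0.053). Their other arms in the list, miR-145a-3p (0.07) and miR-199a-5p (0.35), did not pass. With the miRNA total, where 40.7% of all features were called higher, 7 epithelial, 5 stromal and 3 leukocyte markers rose, with medians of 1.17, 1.26 and 1.78. The 2 tested red blood cell markers overlapped in sum (382 to 1258 and 182 to 615 CPM), 0 passed with either scale, the median was −0.83 with TMM and −0.06 with the total, and miR-144-3p was at 0 in 3 samples.

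For male germ cell markers the sign of the median depended on the scale, but it lay below that of all features on both. With TMM 2 of 11 tested markers fell and 0 rose, where 10.2% of all features were called lower. The median was −0.20, against 0.00 for all features. The sum of the markers was 5602 to 9838 CPM in normal and 3493 to 4649 CPM in stress samples, without overlap. Of single tested miRNAs 20.8% were lower without overlap on this scale. Most of the sum was miR-881-3p (log2 fold change −0.91, adjusted p = 0.051 in edgeR). Fold changes of the list ran from −1.40 for miR-871-3p to 0.90 for miR-34c-3p. With the miRNA total 3 rose and 0 fell, where 40.7% of all features were called higher and 4.24% lower. The median was 0.53, against 0.76 for all features. The summed share of the markers in the miRNA reads overlapped, at 0.482% to 0.673% in normal and 0.481% to 0.585% in stress samples. The 2 that fell with TMM were miR-871-3p (−1.40) and the joint miR-465a-3p, miR-465b-3p and miR-465c-3p row (−1.31). In edgeR miR-871-3p did not pass without stress replicate 2 or 3 (adjusted p = 0.059 and 0.053). The miR-465 row did not pass without normal replicate 1 or 2 (adjusted p = 0.11 and 0.065) or stress replicate 2 or 3 (0.13 and 0.14). The part of these other cells in the miR-191-5p level was not tested.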

How the data were processed

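Per the labels' protocols, RNA was taken with TRIzol and made into libraries with Illumina's TruSeq kit. The submitters' processing notes name Bowtie. Its version, the build, any read filter and the way of counting are not given in the sources used. The authors deposited expected counts per mature miRNA: 87.7% of the values above 0 were whole within 0.001, the rest fractions. The authors deposited piRNA and tsRNA tables as RPM, each scaled to its own table; they served only to estimate a total of the 3 tables (tsRNA depth is an estimate). Groups and replicate numbers come from the disease-state labels and the titles.

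Counts were rounded and fitted in edgeR 4.0.16 (R 4.3.3; filterByExpr, minimum count 10; TMM; glmQLFit, glmQLFTest), with Benjamini-Hochberg adjustment over 236 features. SE is the fold change over the square root of F. On simulated counts with 40 features changed by 2 on the log2 scale, the fit recovered 40 and gave 4 false calls. Neither changes as small as those of the members nor a shift of scale between the groups was simulated. Ratios and shares were tested with exact permutation tests (scipy 1.17.1). DESeq2 1.42.0, other scalings and filters, a replicate block and leaving out each sample were the alternatives.

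The members, marker, reference and pair lists were chosen with earlier results of these data known. Features named were the members, those sharing a seed, the 5 most alike per main strand, neighbours in level, tested references and list members past the threshold. Other examples of pairs, hairpins and list members were chosen after their values were seen.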

Additional observations from a re-analysis of the deposited data

How the results depend on the processing

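The direction of miR-191-5p was upward in all 21 alternatives (log2 fold change 0.26 to 1.43). It was called only with the miRNA total (1.15; 1.01, 1.05 and 1.43 without normal replicates 1 to 3, and 1.13, 1.22 and 1.11 without stress replicates 1 to 3). Without single samples and with TMM it was 0.26 to 0.60 and not called. miR-425-5p reversed with a minimum count of 50 (−0.068) and without single samples (−0.14 to 0.12 with TMM); with the total it was 0.57 to 0.91 without single samples. miR-191-3p ran from −1.37 to −0.75 without single samples, from −0.62 to 0.083 (without normal replicate 3) with the total, and its share difference from −5.25 to 0.62 RPM. Among the reads outside let-7 and miR-148a-3p, a smaller total, that difference was −20.0 RPM (0.563-fold, against 0.838-fold of all miRNA reads). The difference of miR-425-3p was 2.21 RPM, but −0.0276 RPM of the reads outside let-7 and miR-148a-3p. The miR-425 arm difference ran from −0.31 to 0.69 without single samples. The arm difference of miR-191 and the mate difference kept their sign in all 9 alternatives each.

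Calls over all features numbered 30, but 106 with the miRNA total (95, 89 and 119 without normal replicates 1 to 3, and 78, 59 and 47 without stress replicates 1 to 3), 6 with the total of the 3 tables (14 with the best-matching tsRNA depth), 49 without a filter, 47 with DESeq2, 44 with RLE and 19 scaled to reads outside let-7 and miR-148a-3p. Without single samples they numbered 17 (stress replicate 3) to 55 (normal replicate 3). Higher and lower calls were 6 and 24 with TMM, 96 and 10 with the miRNA total, 16 and 28 with RLE, and 3 and 3 with the 3 tables. The replicate block gave 28 calls and miR-191-5p at 0.43, and changed no call among the members. To look for pairing, the group mean of each miRNA's log2 level was first subtracted. What remained correlated at 0.11, −0.21 and 0.12 between same-numbered samples. Between the other normal and stress samples it correlated at −0.32 to 0.24. These values gave no sign of pairing, but so few of them cannot exclude it. The cause of the changes in calls was not tested. The scalings by reads outside let-7 and miR-148a-3p, by the best-matching depth and by the total without single samples were chosen after seeing the data. Depth limits the 3p strands, at 4 to 53 reads a sample.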
